A study of Saccharomyces cerevisiae with 9 samples.

Results

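Ribosome footprints were examined for 10 genes of Saccharomyces cerevisiae that encode mRNA-binding regulators and translation helicases: DED1, DBP1, PUB1, NGR1, SBP1, SRO9, SLF1, GIS2, WHI3 and STM1. The genes were taken by name, though earlier results of these data were known when they were chosen. Each symbol was matched to 1 mRNA of the deposited isoform table, so that the 10 genes stood among 6952 entries. Of these entries 6587 were spliced or intronless mRNAs. None of the 10 had an entry for an unspliced form. The study profiled ribosomes in 3 haploid strains of the W303 background, with 3 libraries each, grown in rich YEPD medium at 30 °C. WT carried both PAB1, which encodes the cytoplasmic poly(A)-binding protein, and PBP1, which encodes a Pab1-binding protein. In pbp1Δ the PBP1 coding sequence was replaced by URA3. In pab1Δpbp1Δ PAB1 was in addition replaced by kanMX, and the loss of PBP1 is what lets these cells live without PAB1. The other auxotrophic markers of W303 were shared by all 3 strains, while both mutants carry a working URA3 that WT lacks. The methods describe the mutant libraries as separate isolates and the WT libraries as technical replicates of a single strain, and the pab1Δpbp1Δ isolates all descend from a single pbp1Δ isolate. They also describe slower growth of pab1Δpbp1Δ cells, which cannot be told apart from the loss of Pab1 here.

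Whether an mRNA is scanned, translated, stored or degraded depends on the proteins bound to it, among them the cap-binding complex eIF4F, the poly(A)-binding protein and many mRNA-binding regulators. DEAD-box helicases such as Ded1 use ATP to open RNA structure ahead of the scanning ribosome, proteins with RGG motifs such as Sbp1 bind eIF4G and hold initiation back, and La-motif, zinc-knuckle and RRM proteins attach to chosen mRNAs or to the ribosome itself. Some of these proteins share binding partners with Pab1, such as eIF4G, and many of them gather with untranslated mRNA in stress granules and P bodies.

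Ribosome profiling sequences the mRNA fragments that 80S ribosomes protect from RNase I. The values are footprints assigned to each mRNA, so a change can come from the amount of mRNA or from the number of ribosomes on it, and these cannot be told apart here. Each library held 3149040 to 6903587 assigned counts, and a count of 3, the floor for a gene that is not seen, corresponded to 4.35e-05% to 9.53e-05% of a library. The deleted genes bore out the labels: PAB1 had a normalized count of 5175 ± 529 (SD, n = 3) in pbp1Δ and at most 3 in any pab1Δpbp1Δ library, and PBP1 had 794 ± 17.7 (SD, n = 3) in WT and at most 2.97 in any mutant library. Replicate libraries differed by more than counting noise, with a chi-square per degree of freedom of 5.97 to 43.6. The library pbp1Δ replicate 1 stood apart within its group, at 35.7 and 32 against the other two, which differed from each other by 7.34. Ribosomal protein mRNAs took 19.7% of its counts, against 15.6% to 17.4% in the other pbp1Δ and WT libraries and 11.3% to 14.4% in pab1Δpbp1Δ.

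Normalized counts below are counts divided by size factors over the 9 libraries, and FPKM, in which counts are divided by mRNA length and by the size of the library, is used wherever genes are compared with each other. The order of the 10 genes by mean FPKM was the same in the 3 strains: STM1, GIS2, SRO9, SBP1, DED1, PUB1, WHI3, NGR1, SLF1 and DBP1. In WT the mean FPKM ran from 1597 ± 200.1 for STM1 to 0.78 ± 0.262 for DBP1 (SD, n = 3). STM1 lay at the 98.3th percentile of the 5827 entries ranked and GIS2 at the 96.4th. SRO9, SBP1, DED1 and PUB1 lay between the 88.6th and 94.2th percentile, with mean FPKM of 415, 264, 215 and 171. WHI3, at 26.0, and NGR1, at 22.5, were the only neighbours in this order whose WT libraries overlapped. SLF1 lay at the 32.5th percentile and DBP1 at the 10th. In pbp1Δ no neighbours overlapped, and in pab1Δpbp1Δ the overlapping neighbours were STM1 with GIS2, SRO9 with SBP1, and DED1 with PUB1.

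**Figure D1:**
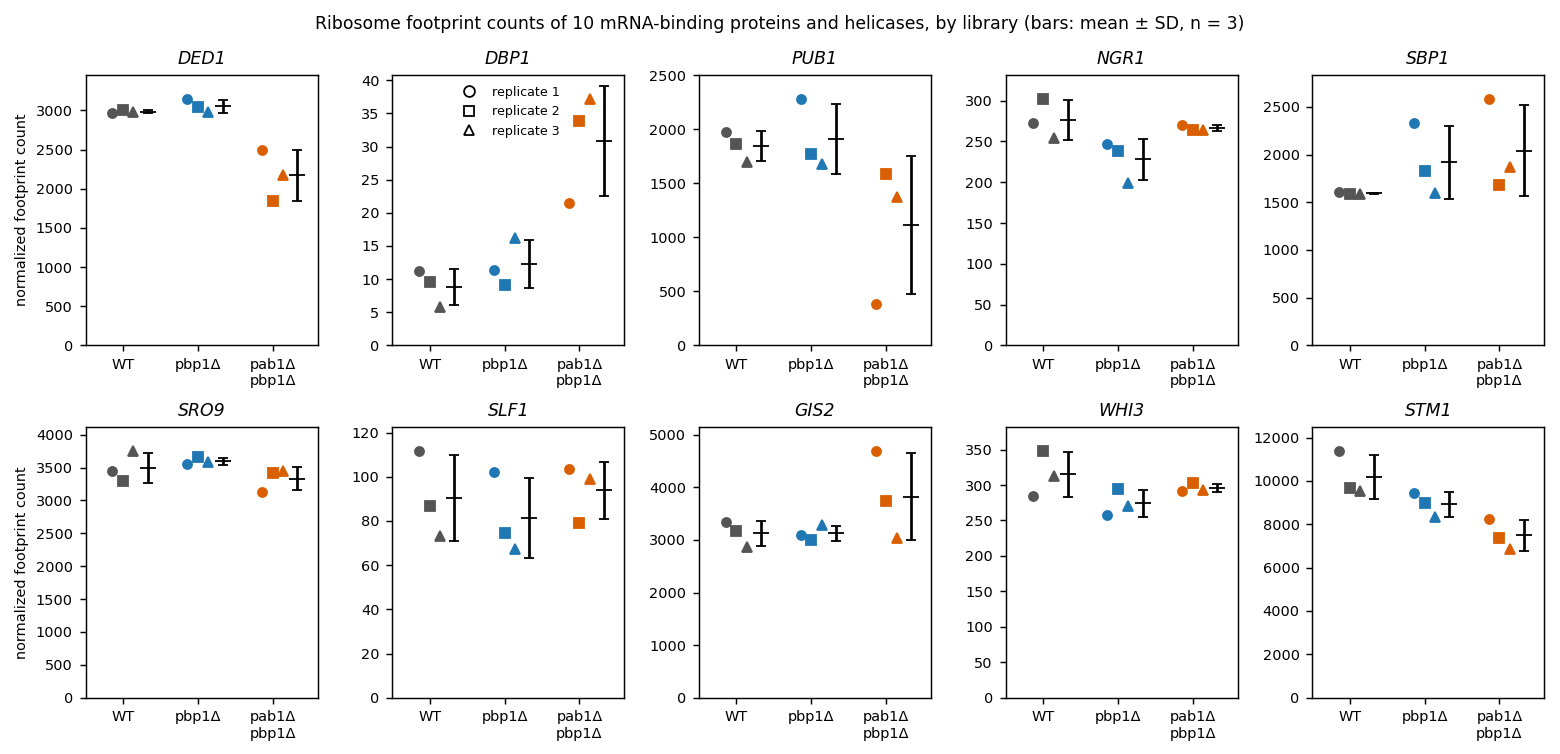
Normalized footprint count (linear axis from 0) of each of the 10 genes in the 3 libraries of WT, pbp1Δ and pab1Δpbp1Δ. Each symbol is a library, with the replicate number given by its shape, and the bars show the mean ± SD of 3 libraries. DED1 and STM1 sit lowest in pab1Δpbp1Δ, DBP1 sits highest there, and PUB1 has a single low library at 383.

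The comparison of pab1Δpbp1Δ with pbp1Δ asked what the loss of PAB1 changed in a common background. Of the 10 genes, DED1 was the only one called: its footprints fell to 0.704-fold of the pbp1Δ level, whereas its paralog DBP1 had 2.49-fold more footprints without passing the threshold. A call here is a DESeq2 adjusted p below 0.01 over all 5769 entries tested, of which 21.3% were called (11.1% higher, 10.2% lower). The 1 call among 10 genes is thus no larger a share than that of the table as a whole. At an unadjusted p below 0.05 there were 2 of the 10, DED1 and DBP1, against 39.3% of entries, and edgeR's quasi-likelihood test called 0 of the 10 and 16.4% of entries. The pab1Δpbp1Δ libraries lay wholly above the pbp1Δ libraries for 2 genes (DBP1 and NGR1) and wholly below for 4 (DED1, PUB1, SRO9 and STM1), against 46.0% of entries that did not overlap (23.2% above, 22.8% below). This tally depends on the scaling. With counts scaled by the library total instead, 3 genes lay above (DBP1, NGR1 and WHI3) and 1 below (DED1), against 46.2% of entries (28.8% above, 17.4% below), and FPKM gave the same genes. The median log2 fold change of the 10 genes was 0.09, beside 0.02 over all entries tested, and the median absolute log2 fold change was 0.24, beside 0.43 over all entries.

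The comparison of pbp1Δ with WT covered the loss of PBP1 together with the working URA3 that replaced it, which cannot be told apart here. DESeq2 called 0 of the 10 genes, against 1.21% of 5635 entries (0.337% higher, 0.870% lower), and edgeR also called 0 of the 10, against 0.0192% of its entries. At an unadjusted p below 0.05 there were also 0 of the 10, against 12.7% of entries. The log2 fold changes ran from -0.28 for NGR1 to 0.48 for DBP1, with a median of 0.01 beside 0.00 over all entries. The libraries did not overlap for 2 genes, NGR1 and STM1, both lower in pbp1Δ, against 23.4% of entries (11.7% lower). Scaled by the library total, the libraries overlapped for all 10, where 22.9% of entries did not overlap (11.8% above, 11.1% below).

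Against WT, pab1Δpbp1Δ had 3 of the 10 genes called: DED1 and STM1 fell and DBP1 rose. Of 5877 entries 30.9% were called in this comparison (15.7% higher, 15.3% lower), so the share among the 10 was close to that of the table. For 5 of the genes all libraries of one strain lay beyond those of the other, 2 (DBP1 and SBP1) above WT and 3 (DED1, PUB1 and STM1) below, against 55.0% of entries (28.8% above, 26.2% below). PUB1 overlapped with WT once counts were scaled by the library total, which left 2 above and 2 below, against 54.4% of entries (32.8% above, 21.6% below). At an unadjusted p below 0.05 there were 4 of the 10, with SBP1 in addition, against 46.8% of entries. The median absolute log2 fold change was 0.32 for the 10 genes and 0.52 over all entries. The 2 comparisons with pab1Δpbp1Δ share its libraries, the 2 with pbp1Δ share those, and the 2 with WT likewise, so the 3 sets of values are not independent of each other. The 3 calls were kept without pab1Δpbp1Δ replicate 1, and 0 of the 10 genes were called without any single one of the other 5 libraries.

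**Figure D2:**
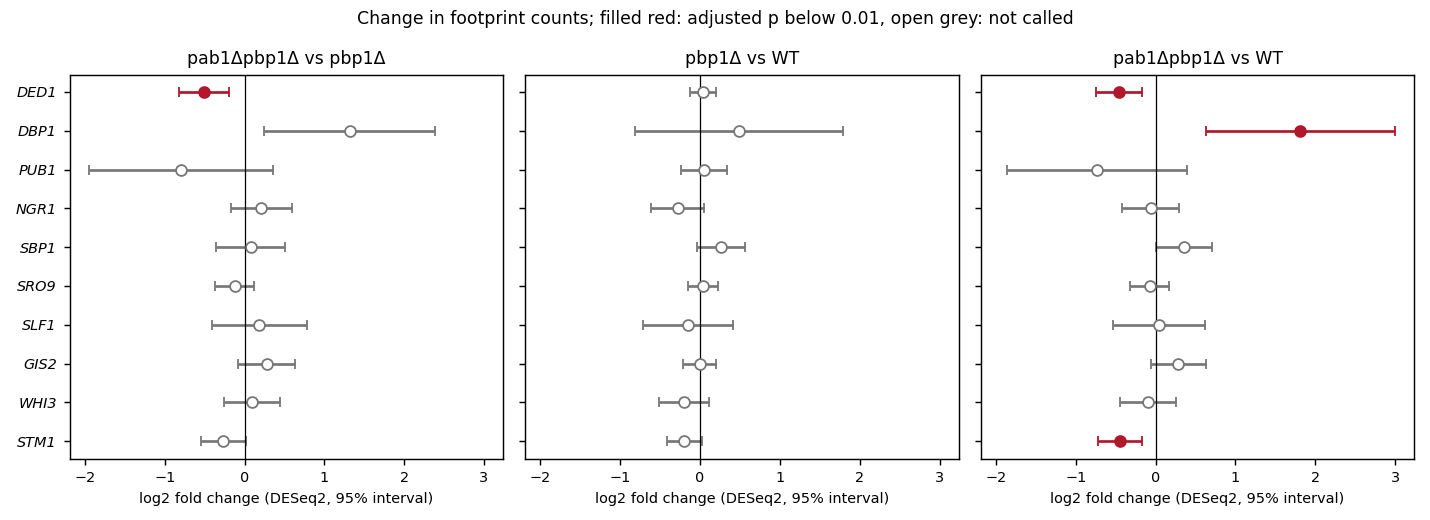
Log2 fold change of footprint counts (horizontal axis, DESeq2, with 95% intervals) of the 10 genes in the 3 comparisons. Filled red points passed an adjusted p of 0.01 and open grey points did not: DED1 in both comparisons of pab1Δpbp1Δ, and DBP1 (1.81) and STM1 (-0.45) against WT.

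DED1 (YOR204W, chromosome XV, 722911 to 724725 in the R64 annotation) encodes an essential DEAD-box helicase that promotes scanning through structured leaders. Its normalized counts were 2963, 3001 and 2984 in the WT libraries. In pbp1Δ they were 3144, 3042 and 2978, and in pab1Δpbp1Δ 2492, 1846 and 2178. All pab1Δpbp1Δ libraries were thus below all others. The WT libraries were closer to each other than almost any other mRNA's. Their SD on the log2 scale, 0.00918, was at the 0.6th percentile of 3829 entries whose mean count reached 100. That is below the counting noise at 2658 to 2836 expected counts, so it is not read as a trait of the gene. The log2 fold change between pab1Δpbp1Δ and pbp1Δ was -0.51 (SE 0.16, 95% interval -0.82 to -0.19, DESeq2 adjusted p = 0.00747). Single pab1Δpbp1Δ libraries stood at 81.6%, 60.4% and 71.3% of the pbp1Δ mean. The call lay near its threshold and held in 7 of 19 alternative settings, among them the looser threshold of an adjusted p below 0.05. Over all 19 settings the adjusted p ran from 0.00044 to 0.077. The call was kept without pab1Δpbp1Δ replicate 1 (log2 fold change -0.62) and lost without any of the other 5 libraries, where the log2 fold change was -0.53 to -0.395. By edgeR the adjusted p was 0.0396. Against WT the log2 fold change was -0.46 (SE 0.15, DESeq2 adjusted p = 0.00594, edgeR adjusted p = 0.0275), and between pbp1Δ and WT it was 0.03 (95% interval -0.13 to 0.20).

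By likeness of pattern, the entries whose log2 normalized counts followed DED1 most closely over the 9 libraries were EXG1 (r = 0.991), FDC1 (r = 0.99) and RPL7B (r = 0.989), among 3818 entries. EXG1 encodes an exo-glucanase of the cell wall, FDC1 a decarboxylase of phenylacrylic acids and RPL7B a protein of the large ribosomal subunit. Their log2 fold changes between pab1Δpbp1Δ and pbp1Δ were -0.73, -2.30 and -1.87, each further from 0 than that of DED1. The points share libraries and the step between strains, so r is given as a description.

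DBP1 (YPL119C, chromosome XVI, 324411 to 326264) encodes the paralog of Ded1, which can replace it when overproduced. It had the fewest footprints of the 10 genes, with expected counts of 10, 9.02 and 5.37 in WT and 13.08, 11.07 and 17 in pbp1Δ. In pab1Δpbp1Δ the expected counts were 23.18, 46.01 and 22.97. After normalization these became 11.15, 9.54 and 5.78 in WT, 11.40, 9.15 and 16.17 in pbp1Δ, and 21.4, 33.8 and 37.1 in pab1Δpbp1Δ. The pab1Δpbp1Δ libraries were all above the rest, and the others overlapped. The log2 fold change was 1.32 against pbp1Δ (SE 0.55, 95% interval 0.25 to 2.38), which did not pass the threshold (DESeq2 adjusted p = 0.05, edgeR adjusted p = 0.0276). Against WT it was 1.81 (SE 0.60, DESeq2 adjusted p = 0.00894, edgeR adjusted p = 0.00542). With the replicate number as a block this call was lost, with the log2 fold change still 1.81 but DESeq2's adjusted p at 0.0418. RSEM divides reads that align to both DED1 and DBP1 between them, and with so few counts the part of such reads in the DBP1 values was not tested.

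The relation between the paralogs could also be read within each library, where scaling plays no part. DED1 exceeded DBP1 by FPKM 258-fold in the median WT library (219 to 423), 228-fold in pbp1Δ (151 to 274) and 48.2-fold in pab1Δpbp1Δ (44.9 to 95.8). The log2 ratio of DBP1 to DED1 counts was -8.00 ± 0.44 in pbp1Δ and -6.17 ± 0.60 in pab1Δpbp1Δ (SD, n = 3), a difference of 1.84. The libraries did not overlap, and the exact two-sided permutation p was 0.1, the smallest that 3 against 3 libraries allow. Against WT, at -8.45 ± 0.50, the difference was 2.29, with the same exact permutation p of 0.1. Between pbp1Δ and WT it was 0.45, with overlapping libraries (exact permutation p = 0.5). Over the 12 such tests of 4 within-library measures in 3 comparisons, the lowest Benjamini-Hochberg adjusted value of these exact permutation tests was 0.4.

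**Figure D3:**
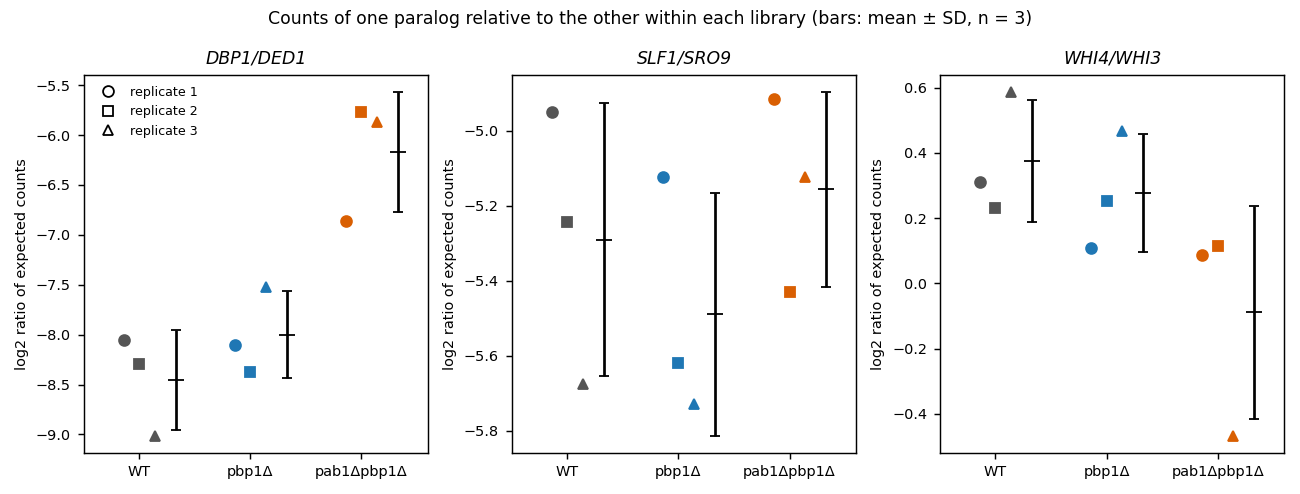
Log2 ratio of expected counts of one paralog to the other within each library (vertical axis), for DBP1 to DED1, SLF1 to SRO9 and WHI4 to WHI3. Symbols are libraries, bars are mean ± SD of 3. For DBP1 to DED1 the pab1Δpbp1Δ libraries lie between -6.86 and -5.77, above all others, and the SLF1 to SRO9 ratios overlap between strains.

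PUB1 (YNL016W, chromosome XIV, 602907 to 604268) encodes an RRM protein that binds U-rich and A-rich RNA, protects some mRNAs from decay and is a component of stress granules. Its normalized counts were 1977, 1862 and 1695 in WT and 2277, 1765 and 1681 in pbp1Δ. In pab1Δpbp1Δ they were 383, 1585 and 1369. On this scale all 3 pab1Δpbp1Δ libraries were below the other strains, replicate 1 by far the most, but by FPKM replicate 2 (158) lay above pbp1Δ replicate 3 (157) and WT replicate 3 (151). The libraries stood at 20.1%, 83.1% and 71.8% of the pbp1Δ mean. The log2 fold change against pbp1Δ was -0.79 with a wide interval (SE 0.59, 95% interval -1.94 to 0.36, DESeq2 adjusted p = 0.325). Without pab1Δpbp1Δ replicate 1 it was -0.38, and without pab1Δpbp1Δ replicate 2 it was -1.13, neither of them called. Against WT it was -0.74 (95% interval -1.87 to 0.40, DESeq2 adjusted p = 0.319) and -0.33 without pab1Δpbp1Δ replicate 1, and between pbp1Δ and WT it was 0.04 (95% interval -0.24 to 0.33).

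The spread of PUB1 within pab1Δpbp1Δ, an SD of 1.125 on the log2 scale, was at the 99.5th percentile of 3829 entries, whose median was 0.227. On that scale replicate 1 lay at -1.94 from the mean of the other two, and 9 of the 3829 entries, PUB1 among them, lay as far or further below. Of the 6 genes on each side of PUB1, 6 had a mean count of at least 100, and in replicate 1 they lay between -0.83 and 0.15 on the log2 scale from their pbp1Δ mean, where PUB1 lay at -2.31. YNL019C and YNL018C, directly to one side, had too few footprints for such a comparison (10.8, 21.1 and 38.8, and 0.805, 0 and 1.62 normalized counts in the 3 libraries). The median of 280 entries on chromosome XIV was -0.08, -0.14 and -0.19 in the 3 pab1Δpbp1Δ libraries. Such a median cannot show a change at a single gene, and why PUB1 was low in replicate 1 was not tested.

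**Figure D4:**
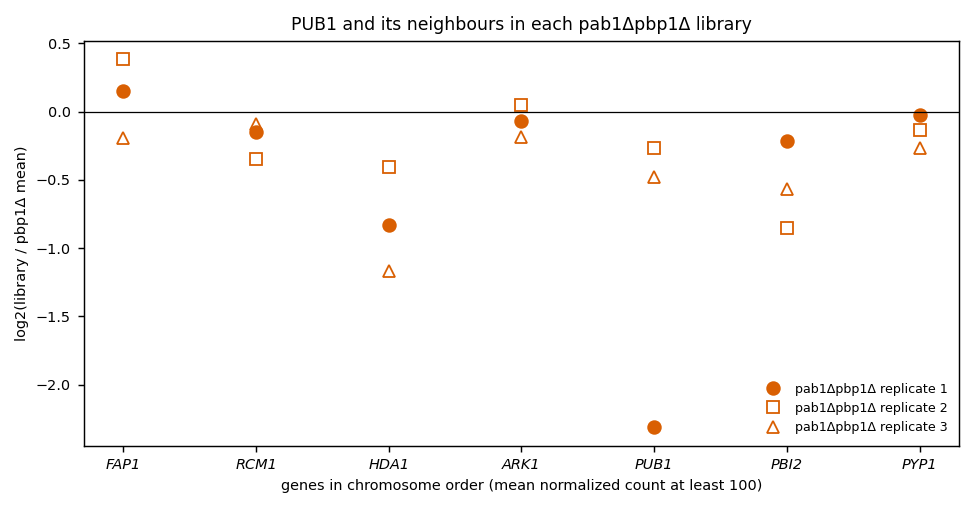
Log2 of the normalized count in each pab1Δpbp1Δ library over the pbp1Δ mean (vertical axis), for PUB1 and those of the 6 genes on each side with a mean count of at least 100, in chromosome order. Filled circles are replicate 1, where PUB1 lies at -2.31 and its neighbours between -0.83 and 0.15.

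NGR1 (YBR212W, chromosome II, 647886 to 649904) encodes another RRM protein, which promotes the decay of the mRNA for mitochondrial porin. Its normalized counts were 273, 302 and 254 in WT, 247, 238 and 199 in pbp1Δ, and 270, 264 and 264 in pab1Δpbp1Δ. On this scale the pbp1Δ libraries were the lowest of the 9, whereas by FPKM pbp1Δ replicate 1 (20.1) lay above WT replicate 3 (19.9). The differences were small and not called: the log2 fold change was -0.28 between pbp1Δ and WT (95% interval -0.61 to 0.05, DESeq2 adjusted p = 0.513), 0.21 between pab1Δpbp1Δ and pbp1Δ (95% interval -0.17 to 0.59), and -0.06 between pab1Δpbp1Δ and WT (95% interval -0.42 to 0.29). In contrast to PUB1, the NGR1 counts in pab1Δpbp1Δ lay close together, with an SD of 0.02 on the log2 scale, at the 0.7th percentile. That is below the counting noise at 163 to 359 expected counts, so it is not read as a trait of the gene.

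SBP1 (YHL034C, chromosome VIII, 33193 to 34077) encodes an RRM and RGG protein that binds eIF4G and represses initiation. Its normalized counts were 1603, 1587 and 1588 in WT, an SD of 0.00801 on the log2 scale. That SD is below the counting noise at 1438 to 1500 expected counts. The normalized counts were 2335, 1824 and 1594 in pbp1Δ and 2581, 1678 and 1865 in pab1Δpbp1Δ. Their SDs on the log2 scale were 0.279 in pbp1Δ, at the 76.9th percentile, and 0.324 in pab1Δpbp1Δ, at the 74.7th. The highest value of each mutant was in its replicate 1. All pab1Δpbp1Δ libraries were above WT, but the log2 fold change of 0.35 (SE 0.18, 95% interval 0.00 to 0.70) was not called (DESeq2 adjusted p = 0.105), and without pab1Δpbp1Δ replicate 1 it was 0.14. It was 0.27 between pbp1Δ and WT (95% interval -0.03 to 0.57), and 0.10 without pbp1Δ replicate 1. Between pab1Δpbp1Δ and pbp1Δ it was 0.08 (95% interval -0.35 to 0.50), with overlapping libraries, and its sign turned without pab1Δpbp1Δ replicate 1 (-0.13).

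SRO9 (YCL037C, chromosome III, 57374 to 58678) and SLF1 (YDR515W, chromosome IV, 1473429 to 1474772) encode paralogous La-motif proteins that associate with translating ribosomes. SRO9 had normalized counts of 3446, 3289 and 3744 in WT, 3553, 3656 and 3579 in pbp1Δ, and 3124, 3418 and 3447 in pab1Δpbp1Δ. The pab1Δpbp1Δ libraries lay below those of pbp1Δ in these counts, but by FPKM they overlapped (399.5, 438.9 and 440.3 against 424 to 434), and no difference was called (log2 fold change -0.13, 95% interval -0.37 to 0.12, DESeq2 adjusted p = 0.494). In pbp1Δ the SRO9 counts lay close together, with an SD of 0.0214 on the log2 scale, at the 1.2th percentile. That is no larger than the counting noise at 3762 to 4425 expected counts, so it is not read as a trait of the gene. Against WT the log2 fold changes were 0.04 in pbp1Δ (95% interval -0.15 to 0.22) and -0.08 in pab1Δpbp1Δ (95% interval -0.32 to 0.17).

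SLF1 had far fewer footprints, with normalized counts of 111, 86.8 and 73.2 in WT, 102, 74.4 and 67.5 in pbp1Δ, and 104, 79.2 and 99.0 in pab1Δpbp1Δ. The 3 strains overlapped, and in each of them replicate 1 was the highest. No comparison was called, with log2 fold changes of 0.19 between pab1Δpbp1Δ and pbp1Δ (95% interval -0.41 to 0.78), -0.16 between pbp1Δ and WT (-0.72 to 0.41) and 0.04 between pab1Δpbp1Δ and WT (-0.54 to 0.62). By FPKM, SRO9 exceeded SLF1 40.6-fold in the median WT library (33.1 to 54.7), 52.6-fold in pbp1Δ (37.2 to 56.7) and 37.2-fold in pab1Δpbp1Δ (32.2 to 46.1). The log2 ratio of SLF1 to SRO9 differed by 0.33 between pab1Δpbp1Δ and pbp1Δ (exact two-sided permutation p = 0.3), by -0.20 between pbp1Δ and WT (p = 0.6) and by 0.13 between pab1Δpbp1Δ and WT (p = 0.6), and the libraries overlapped each time. Within replicate numbers, a pairing that no label states, the ratio was lower in pbp1Δ than in WT in 3 of 3 pairs. It was higher in pab1Δpbp1Δ than in pbp1Δ in 3 of 3 pairs. In both the exact sign-flip permutation p was 0.25, the smallest possible, and for pab1Δpbp1Δ against WT it was 0.75.

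GIS2 (YNL255C, chromosome XIV, 167329 to 167790) encodes a small zinc-knuckle protein related to human CNBP that associates with the translation machinery. Its normalized counts were 3347, 3164 and 2865 in WT, 3100, 2998 and 3280 in pbp1Δ, and 4683, 3749 and 3034 in pab1Δpbp1Δ. The first and second pab1Δpbp1Δ libraries were above all others, while the third lay among them. The log2 fold change was 0.28 against pbp1Δ (SE 0.18, 95% interval -0.08 to 0.64, DESeq2 adjusted p = 0.26) and 0.29 against WT (95% interval -0.06 to 0.63, DESeq2 adjusted p = 0.192). Without pab1Δpbp1Δ replicate 1 the value against pbp1Δ was 0.10, and without pab1Δpbp1Δ replicate 3 it was 0.42 (DESeq2 adjusted p = 0.0483), so single libraries moved it by more than 1.5 times and none brought a call. The pbp1Δ and WT levels differed by less than 0.01 on the log2 scale (95% interval -0.21 to 0.20).

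WHI3 (YNL197C, chromosome XIV, 267608 to 269593) encodes an RRM protein that binds the mRNA of the G1 cyclin Cln3 and delays entry into the cell cycle. Its normalized counts were 284, 347 and 313 in WT, 257, 295 and 270 in pbp1Δ, and 291.5, 303.1 and 292.9 in pab1Δpbp1Δ. The strains overlapped in these counts, while by FPKM the pab1Δpbp1Δ libraries (25.8 to 26.9) lay above pbp1Δ (21.3 to 24.2). None of the differences was called, with log2 fold changes of 0.10 between pab1Δpbp1Δ and pbp1Δ (95% interval -0.26 to 0.45), -0.20 between pbp1Δ and WT (-0.51 to 0.11) and -0.10 between pab1Δpbp1Δ and WT (-0.45 to 0.25). As for NGR1, the WHI3 counts in pab1Δpbp1Δ lay closer together than counting noise, with an SD of 0.0306 on the log2 scale (the 1.6th percentile). Its paralog WHI4, which is not one of the 10 genes, had 353, 407 and 471 normalized counts in WT, 277, 351 and 374 in pbp1Δ, and 309, 328 and 212 in pab1Δpbp1Δ. In WT the log2 ratio of WHI4 to WHI3 was 0.38 ± 0.19 (SD, n = 3). It was 0.28 ± 0.18 in pbp1Δ, whereas pab1Δpbp1Δ had -0.09 ± 0.33. The pab1Δpbp1Δ libraries lay below WT without overlap, with a difference of -0.47 and an exact two-sided permutation p of 0.1, the smallest possible. Against pbp1Δ the difference was -0.37 and the libraries overlapped (exact permutation p = 0.2). The lowest ratio was that of pab1Δpbp1Δ replicate 3 (-0.47), and without it these differences were -0.28 and -0.18.

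STM1 (YLR150W, chromosome XII, 440467 to 441288) encodes a protein that clamps the subunits of idle 80S ribosomes together and preserves them during starvation. It had the most footprints of the 10 genes, with normalized counts of 11361, 9653 and 9557 in WT. In pbp1Δ they were 9449, 8986 and 8315, and in pab1Δpbp1Δ 8265, 7378 and 6850. In these counts the libraries descended from WT through pbp1Δ to pab1Δpbp1Δ without overlap. By FPKM both steps overlapped, with 1440 to 1823 in WT, 1312 to 1483 in pbp1Δ and 1150.3 to 1390.0 in pab1Δpbp1Δ. Neither step was called on its own, with log2 fold changes of -0.20 from WT to pbp1Δ (SE 0.11, 95% interval -0.42 to 0.03, DESeq2 adjusted p = 0.492) and -0.26 from pbp1Δ to pab1Δpbp1Δ (SE 0.14, 95% interval -0.54 to 0.01, DESeq2 adjusted p = 0.15). Without WT replicate 1 the first of these was -0.11. Between WT and pab1Δpbp1Δ it was -0.45 and called (SE 0.14, DESeq2 adjusted p = 0.00445, edgeR adjusted p = 0.0241). This call held in 10 of 19 alternative settings. Among these were the replicate number as a block (DESeq2 adjusted p = 0.00101) and the looser threshold of an adjusted p below 0.05. The call was lost without any single library other than pab1Δpbp1Δ replicate 1. Of the counts on the 10 genes together, STM1 took 42.5% in WT, 38.6% in pbp1Δ and 36.2% in pab1Δpbp1Δ, while the share of GIS2 was 13.1%, 13.6% and 18.4%.

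The 10 genes together took 0.437% ± 0.0352 of all counts in WT (SD, n = 3). In pbp1Δ this share was 0.424% ± 0.0234, and pab1Δpbp1Δ had 0.406% ± 0.0279. In single libraries the share was 0.475%, 0.431% and 0.406% in WT, 0.450%, 0.417% and 0.405% in pbp1Δ, and 0.437%, 0.401% and 0.382% in pab1Δpbp1Δ. The strains overlapped, with an exact two-sided permutation p of 0.4 between pab1Δpbp1Δ and pbp1Δ, 0.6 between pbp1Δ and WT and 0.4 between pab1Δpbp1Δ and WT. In each strain the library numbered 1 had the highest share and the library numbered 3 the lowest. Compared within replicate numbers, a pairing that no label states, the share was lower in the first-named strain of each comparison in 3 of 3 pairs. The exact sign-flip permutation p was 0.25 each time, the smallest that 3 pairs allow.

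Gene lists of related function, also chosen with earlier results of these data known, were set beside the 10 genes. In pab1Δpbp1Δ against pbp1Δ, 3 of 6 genes of eIF4F and eIF4B fell and 0 rose, with a median log2 fold change of -0.46 beside 0.02 over all entries, of which 10.2% fell. By edgeR 2 of the 6 were called, beside 16.4% of its entries in either direction. TIF4632, which encodes the eIF4G2 form of the scaffold, was the lowest at -0.84 (DESeq2 adjusted p = 7.17e-04), and CDC33, which encodes the cap-binding eIF4E, the highest at 0.04. Against WT also 3 of the 6 fell, where 15.3% of entries did, and in pbp1Δ against WT 0 were called, beside 1.21% of entries.

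Of 6 other DEAD-box helicases of mRNA export, translation and decay, 2 fell and 0 rose in pab1Δpbp1Δ against pbp1Δ (median -0.43), beside 10.2% of all entries that fell. By edgeR 0 of the 6 were called, beside 16.4% of its entries in either direction. The 6 genes ranged from DBP2, which acts in transcription and mRNP assembly, at -0.77 (DESeq2 adjusted p = 0.00109) to TIF1, which encodes eIF4A, at -0.003. TIF1 and TIF2 encode the same protein, belong to both of these lists, and share reads that RSEM must divide. Of 14 DEAD-box helicases of ribosome assembly, 5 fell and 0 rose (median -0.42), beside the same 10.2%, and edgeR called 5, beside the same 16.4%. The 14 genes ran from DBP3 at -1.28 (DESeq2 adjusted p = 6.78e-09) to FAL1 at -0.003. Against WT 8 of these 14 fell by DESeq2, where 15.3% of entries fell. By edgeR 7 of them fell, beside 31.9% of its entries called in either direction. Set beside the helicases of these lists in pab1Δpbp1Δ against pbp1Δ, DBP1 had the highest log2 fold change, 1.32, at the lowest count of the 10 genes. This value was not called (SE 0.55, DESeq2 adjusted p = 0.05).

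Of 24 other mRNA-binding proteins, 4 fell and 1 rose in pab1Δpbp1Δ against pbp1Δ, a total of 5 against the 21.3% of all entries (median -0.12). The lowest was MRN1, an RRM protein, at -0.96 (DESeq2 adjusted p = 2.78e-05), and the highest JSN1, of the Puf family, at 0.78 (DESeq2 adjusted p = 1.05e-04). In pbp1Δ against WT 1 of the 24 was called, beside 1.21% of all entries (0.870% lower). It was PUF3, whose protein binds mRNAs of mitochondrial function, at -0.55 (SE 0.13, DESeq2 adjusted p = 0.00207). This call held in 11 of 19 alternative settings and was lost by edgeR (adjusted p = 0.0709). The last list held 4 genes for factors that split or guard idle or stalled 80S ribosomes, as Stm1 does. In pab1Δpbp1Δ against pbp1Δ 2 of them fell and 0 rose (median -0.71), beside 10.2% of all entries that fell. By edgeR 2 of the 4 were called, beside 16.4% of its entries in either direction. RLI1, the ribosome-recycling ATPase, was the lowest at -1 (DESeq2 adjusted p = 1.02e-07), and LSO2, which binds idle 80S ribosomes, the highest at 0.28 (DESeq2 adjusted p = 0.771). Ribosomal protein mRNAs, whose share of counts was lower in pab1Δpbp1Δ, enter the scaling of every gene, and with size factors taken without them DED1 stayed called against pbp1Δ (log2 fold change -0.52, DESeq2 adjusted p = 0.00554). With total count scaling that call was lost (log2 fold change -0.39, DESeq2 adjusted p = 0.0463).

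**Figure D5:**
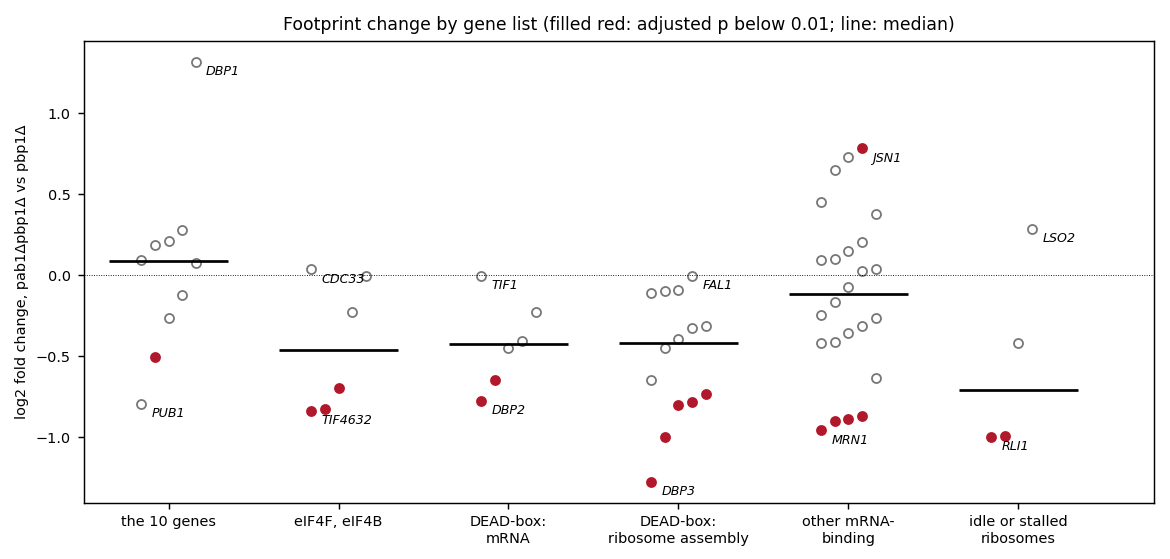
Log2 fold change between pab1Δpbp1Δ and pbp1Δ (vertical axis, DESeq2) of the 10 genes and of 5 lists of related genes, with the median of each list as a line and its lowest and highest gene named. Filled red points passed an adjusted p of 0.01, as 21.3% of all entries did (11.1% higher, 10.2% lower). Called lower were 1 of the 10 genes (DED1), 3 of 6 genes of eIF4F and eIF4B, and 2 of 6 other DEAD-box helicases. So were 5 of 14 helicases of ribosome assembly and 2 of 4 genes of idle or stalled ribosomes. Of 24 other mRNA-binding proteins 4 were called lower and 1, JSN1, higher.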

How the data were processed

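Ribosome-protected fragments from RNase I-treated lysates of 9 yeast cultures were sequenced. Per the methods and the labels, the authors trimmed reads with cutadapt 1.9, removed PCR duplicates by molecular identifiers with UMI-tools, aligned to the R64 transcriptome with Bowtie 1.0.0 and quantified each mRNA with RSEM 1.3.0. The deposited tables hold RSEM expected counts, not normalized, and FPKM values, both per isoform and per gene. Expected counts need not be whole and were rounded before fitting. Because RSEM divides reads that align to several mRNAs, values of paralogs are less certain.

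The 10 genes were matched to isoform entries through the systematic names of the RefSeq annotation (R64), in which 6259 locus tags matched, and positions are those of its genes. The members, lists and tests were chosen with earlier results of these data known. DESeq2 1.42.0 (R 4.3.3) was fitted for each pair of strains on all entries, with independent filtering at 0.01 and Benjamini-Hochberg adjustment, and an adjusted p below 0.01 was a call, after the methods of the study. Every gene of the 10 was named, of each list the lowest and the highest in pab1Δpbp1Δ against pbp1Δ, and any list gene called in pbp1Δ against WT. Patterns like that of a called gene were ranked by Pearson's r over entries whose mean count reached 100. Within-library ratios and shares were tested by exact two-sided permutation of libraries. Alternatives were edgeR 4.0.16 (quasi-likelihood), limma 3.58.1 on log2(FPKM + 1) and log2(FPKM + 0.1), other scalings, filters and tables, a replicate block and leaving out each library. Overlap of libraries under other scalings and list calls by edgeR were added after seeing the data. The fits were also run on simulated counts with a single dispersion, where only entries with a count of at least 100 were changed. Such a simulation does not cover low-count genes such as DBP1 or the varied spread of the real libraries.

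Same-numbered libraries deviated together from their group means in the comparisons with WT (r = 0.211 to 0.62 for pbp1Δ, 0.104 to 0.394 for pab1Δpbp1Δ), a pairing that comes from the data and that no label states. Between pab1Δpbp1Δ and pbp1Δ they did not in every pair (r = -0.161 to 0.421). Since WT libraries may be technical replicates, p-values against WT may measure technical spread. The sequences of the genes are not shown here.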

Additional observations from a re-analysis of the deposited data

How the results depend on the processing

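Of the 10 genes, 0 were called in pab1Δpbp1Δ against pbp1Δ under edgeR, total count scaling, a minimum mean count of 10, the gene table, the 6587 spliced or intronless entries and both limma fits, and 0 to 1 when single libraries were left out. Against WT, 1 was called under edgeR, total count scaling and both limma fits, and 0 to 3 without single libraries. In pbp1Δ against WT 0 were called under all 19 alternatives. Over all entries, limma called 701 (pseudocount 1) and 729 (0.1) in pab1Δpbp1Δ against pbp1Δ, and leaving out libraries gave 756 to 1201. In pbp1Δ against WT, edgeR called 1, a fit of all 9 libraries 33, an adjusted p below 0.05 127, and limma 1 and 2, with 18 to 89 when libraries were left out. The replicate number as a block gave 1197 entries and 1 of the 10 genes (DED1) in pab1Δpbp1Δ against pbp1Δ, where the numbers are not known to pair the cultures, 69 and 0 in pbp1Δ against WT, and 1604 and 2 in pab1Δpbp1Δ against WT, where the call of DBP1 was lost and no other call of the 10 genes changed.

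Signs turned for small values that were not called. In pbp1Δ against WT the log2 fold change of GIS2 was 0.002 with TMM factors, 0.004 with total counts, 0.000 with all 9 libraries and 0.006 under both limma fits. In pab1Δpbp1Δ against WT, NGR1, SRO9 and WHI3 became 0.05, 0.039 and 0.017 with total counts, 0.052, 0.037 and 0.019 by limma with pseudocount 1, and 0.054, 0.037 and 0.02 with 0.1. Leaving out single libraries gave -0.131 to 0.242 for SBP1 in pab1Δpbp1Δ against pbp1Δ. In pbp1Δ against WT it gave -0.351 to 0.021 for SLF1, -0.003 to 0.089 for SRO9, -0.1 to 0.129 for PUB1, -0.065 to 0.05 for GIS2, -0.0294 to 0.00545 percentage points for the joint share and -0.196 to 0.00604 for the WHI4 to WHI3 ratio. In pab1Δpbp1Δ against WT it gave -0.091 to 0.215 for SLF1 and -0.0585 to 0.304 for the SLF1 to SRO9 ratio.

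Total count scaling moved the median log2 fold change over all entries from 0.02 to 0.15 in pab1Δpbp1Δ against pbp1Δ and from 0.05 to 0.18 against WT, and the share of calls that were higher from 52% to 64.7% and from 50.7% to 61.2%. Under limma with pseudocount 1 it was 75.6% and 64.3%. Values near 0 therefore have no settled direction. A fit that leaves out a library has fewer samples, and DBP1, with 5.37 to 46.01 expected counts a library, is limited by depth.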

Other observations

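Besides PUB1, 8 of the 3829 entries lay at least as far below the other two pab1Δpbp1Δ libraries in pab1Δpbp1Δ replicate 1. They were chosen after their values were seen. PCL5, a cyclin of the kinase Pho85, had normalized counts of 88.1, 2107 and 2337 in the 3 pab1Δpbp1Δ libraries and 71.8 to 96.1 in pbp1Δ. SSA3, a stress-induced Hsp70, had 112, 653 and 531 against 1.903 to 4.79 in pbp1Δ, and CIT2, the peroxisomal citrate synthase, 289, 1722 and 1198 against 74.0 to 103. For these 3 genes replicate 1 was the library nearest to pbp1Δ, whereas for PUB1 it was the furthest. SST2, a regulator of pheromone signalling, was like PUB1 in this, at 56.3, 265 and 254 against 599 to 799.9 in pbp1Δ. YDR524C-A, NMD2 and an entry of YMR045C were likewise furthest from pbp1Δ in replicate 1. YJL043W was nearest to pbp1Δ in replicate 1, at 1.19, 733 and 695 against 0 to 3.16 in pbp1Δ.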
